A study of Mus musculus with 6 samples.

Results

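Alx1, Alx4, Prrx1, Prrx2 and Shox2 encode transcription factors of the paired-type homeobox class, and all 5 had an entry among the 23358 of the deposited gene table. They were picked by name as related genes from earlier results on these data, and were chosen on their counts in all 6 libraries, by genotype and day. Their own differences between genotypes and between days are therefore given as description, and where calls among them are counted, the share of all genes stands beside the count and nothing is read from it. RNA came from cartilage cells (immature chondrocytes) of mice of a mixed C57BL/6 background at post-natal day 5, taken from the hip and knee and grown as micromasses, which are dense spots of cells, with ascorbic acid and β-glycerol phosphate. The series held Ezh2-deficient cells, titled as a conditional knockout (cKO), and wildtype cells, each with 1 library per day of culture (3, 7 and 14), 6 in all. Neither the Cre driver, nor the deleted part of Ezh2, nor the number of animals behind a library is stated in the labels.

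A paired-type homeodomain binds DNA with a TAAT core, often as a dimer on a palindromic pair of cores. In the mouse embryo, genes of this class pattern the mesenchyme of the limb bud and the face before and while cartilage condenses there. Ezh2 is the methyltransferase of Polycomb repressive complex 2, which marks histone H3 at lysine 27 and is known for holding homeobox genes silent in tissues that do not use them. No histone mark was measured here.

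Promoters were matched for Prrx1, Prrx2 and Shox2, and are shown to set the paralogs Prrx1 and Prrx2 side by side. RefSeq windows from 250 bases before to 50 after the start, on GRCm38.p6 (the mm10 assembly that the submitters' processing notes name), were matched for 3 of the 5 genes. They are written 5′ to 3′ on the gene's strand, with TAAT on either strand in capitals. The windows lie at chr1:163313601-163313900 (minus strand) for Prrx1, chr2:30845117-30845416 (plus strand) for Prrx2 and chr3:66981722-66982021 (minus strand) for Shox2.
Prrx1: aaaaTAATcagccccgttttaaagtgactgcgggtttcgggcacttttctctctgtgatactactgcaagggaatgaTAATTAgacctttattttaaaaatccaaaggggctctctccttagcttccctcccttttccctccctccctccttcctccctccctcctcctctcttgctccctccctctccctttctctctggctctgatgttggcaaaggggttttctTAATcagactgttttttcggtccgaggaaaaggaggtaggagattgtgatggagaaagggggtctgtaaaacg
Prrx2: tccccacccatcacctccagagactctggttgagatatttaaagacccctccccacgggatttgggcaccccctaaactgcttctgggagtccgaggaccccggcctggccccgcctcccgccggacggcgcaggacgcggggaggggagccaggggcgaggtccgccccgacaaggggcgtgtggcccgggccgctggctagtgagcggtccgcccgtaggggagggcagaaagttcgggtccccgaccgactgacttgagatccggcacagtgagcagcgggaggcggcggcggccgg
Shox2: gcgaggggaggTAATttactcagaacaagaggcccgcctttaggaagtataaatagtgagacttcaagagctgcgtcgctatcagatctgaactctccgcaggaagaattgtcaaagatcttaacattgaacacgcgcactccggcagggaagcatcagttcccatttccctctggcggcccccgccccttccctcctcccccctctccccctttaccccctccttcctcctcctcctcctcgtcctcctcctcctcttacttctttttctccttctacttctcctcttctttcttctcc
Prrx1 held 4 TAAT matches, of which an overlapping pair forms TAATTA at -173, Shox2 held 1 and Prrx2 held 0. Of 32851 windows of the same length in the RefSeq table, 58.0% held TAAT on either strand, 5.29% held TAATTA and 13.6% held TATAAA, which Shox2 has at -203. The Prrx2 window had 28 CG dinucleotides and 70.3% G or C, whereas Shox2 had 11 and 53.3% and Prrx1 had 6 and 47.7%. At least 28 CG were found in 14.2% of all windows and at least 6 in 56.4%. The 2 Prrx windows thus differed widely in composition. In GENCODE Prrx2 starts at 30834972, upstream of the window shown, and the sequence at that start was not compared.

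Set side by side per length, Prrx1, Prrx2 and Shox2 were the abundant members and Alx1 and Alx4 the scarce ones in every library. The values are the authors' deposited RPKM (reads scaled by coding length and library total). In Ezh2-deficient libraries at days 3, 7 and 14, Shox2 had 27.9, 23.0 and 19.2 RPKM, Prrx1 17.3, 31.5 and 28.3, and Prrx2 9.35, 34.1 and 22.1. Alx1 had 1.79, 0.672 and 0.281 RPKM there, and Alx4 0.189, 0.812 and 0.958. In wildtype libraries Shox2 had 34.1, 24.9 and 18.9 RPKM, Prrx1 11.9, 26.4 and 33.9, and Prrx2 6.55, 29.3 and 23.8. Alx1 had 0.132, 0.0694 and 0.0249 RPKM in wildtype, and Alx4 0.0768, 0.256 and 0.358. Shox2 led at day 3 in both genotypes, Prrx2 at day 7 and Prrx1 at day 14. At day 7 Prrx2 and Prrx1 lay close together, with Prrx1 at 0.925 times Prrx2 in the Ezh2-deficient library and 0.901 times in the wildtype library. With 1 library per genotype and day, no spread between samples can be set beside these orders.

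**Figure D1:**
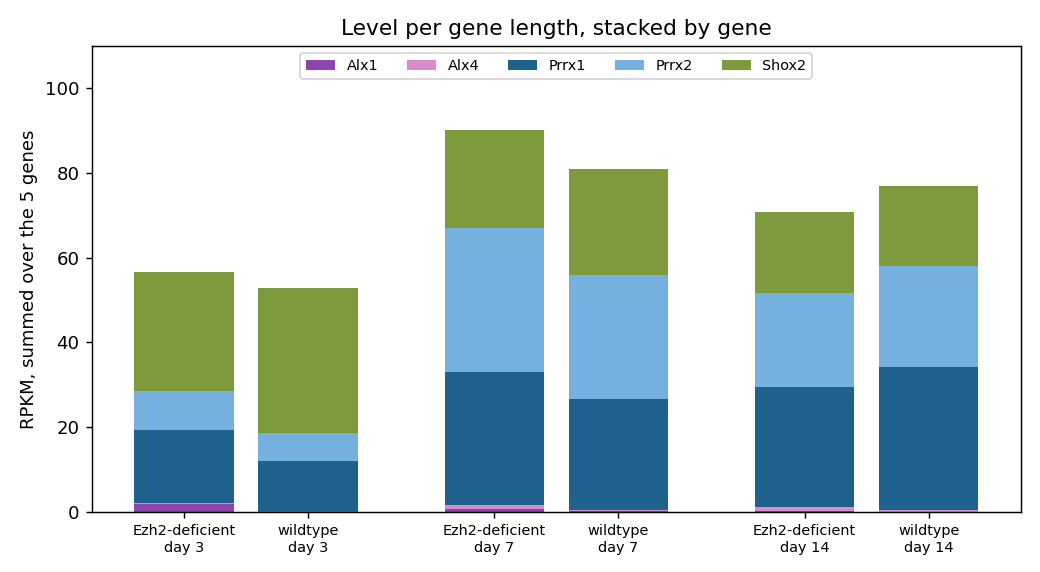
Deposited RPKM of the 5 genes, stacked, in each library (vertical axis, RPKM), with the Ezh2-deficient bar left of the wildtype bar at each day. The Ezh2-deficient stacks sum to 56.5, 90.1 and 70.8 over the days and the wildtype stacks to 52.8, 81 and 76.9, and Alx1 and Alx4 form the thin base.

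Alx1 stood far higher in Ezh2-deficient than in wildtype cells on each day, while its level was lower on each later day in both. It is a homeobox gene of cranial and facial mesenchyme, first described in cartilage cells of the rat, and lies on chromosome 10 from 103007847 to 103028777. Counts of 436, 150 and 50 at days 3, 7 and 14 gave 5.87, 1.91 and 0.912 CPM (counts scaled to a common library size with TMM factors) in Ezh2-deficient libraries, against counts of 28, 14 and 4 and 0.425, 0.199 and 0.0760 CPM in wildtype. The lowest Ezh2-deficient library was thus above the highest wildtype library. The ratio of Ezh2-deficient to wildtype was 13.8 at day 3 (exact 95% counting interval 8.06 to 25.7), 9.60 at day 7 (4.44 to 24.7) and 12 at day 14 (2.99 to 105). All counts in the table were even, so a fragment was taken as 2 counts, and the day 14 wildtype library held 2 fragments of Alx1, under the floor of 3. The intervals cover counting error only. In GENCODE, 243 exonic bases of Alx1 are shared with Gm17028, a long noncoding RNA on the same strand. Gm17028 starts there at 103029479, beyond the end of the Alx1 entry in the deposited table. Level at day 14 was 0.156 times that at day 3 in Ezh2-deficient libraries (0.0985 to 0.236) and 0.179 times in wildtype (0.0197 to 0.779). The single steps in wildtype were 0.468 times from day 3 to day 7 (0.16 to 1.24) and 0.383 times from day 7 to day 14 (0.0388 to 2.01). Both of these intervals include 1.

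Alx4 was also higher in Ezh2-deficient cells on each day, by a smaller factor, and had the opposite course over time. It acts in the anterior limb bud and the skull, and mice without it grow extra digits on the thumb side. It lies on chromosome 2 from 93642434 to 93681339. Alx4 had 1.29, 4.80 and 6.50 CPM at days 3, 7 and 14 in Ezh2-deficient libraries, against 0.516, 1.53 and 2.28 CPM in wildtype. The groups overlapped, since the Ezh2-deficient library of day 3 was below the wildtype library of day 14, but within each day the Ezh2-deficient library was higher. The ratios were 2.50 at day 3 (1.41 to 4.65), 3.14 at day 7 (2.31 to 4.33) and 2.85 at day 14 (2.12 to 3.89). Level at day 14 was 5.03 times that at day 3 in Ezh2-deficient libraries (3.64 to 7.07) and 4.42 times in wildtype (2.55 to 8.08).

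The ratio of Alx4 to Alx1 therefore rose during culture in both genotypes. Per length, Alx4 was 0.106 times Alx1 at day 3, 1.21 times at day 7 and 3.41 times at day 14 in Ezh2-deficient libraries. In wildtype libraries the same ratio was 0.582, 3.70 and 14.4. The first of these rests on 17 fragments of Alx4 and 14 of Alx1, and the last on the 2 fragments of Alx1. No counting interval was computed for this ratio, so which of the 2 genes led at day 3 in wildtype is not shown. For Alx4 the counting intervals of the ratio between genotypes overlapped over the days. For Alx1 they were too wide to show whether that ratio differed between days. Averaged over the days, the log2 difference, which the prior count of 2 pulls towards 0 for Alx1, was 3.31 ± 0.34 for Alx1 and 1.47 ± 0.18 for Alx4 (SD over 3 days).

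**Figure D2:**
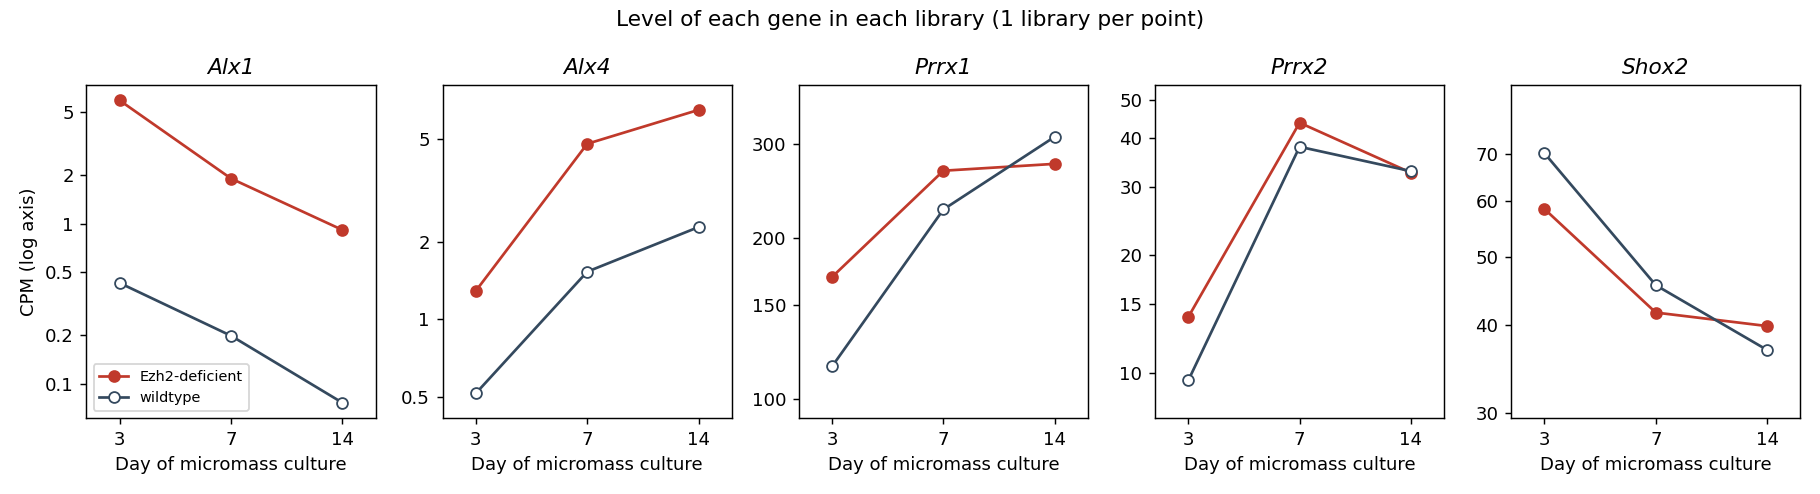
Level of each gene (vertical axis, CPM on a log scale that differs between panels) by day of culture (horizontal axis), with filled points for Ezh2-deficient and open points for wildtype libraries. The lines stay apart for Alx1 and Alx4 and cross between days 7 and 14 for Prrx1, Prrx2 and Shox2.

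Prrx1 and Prrx2 were moderately higher in Ezh2-deficient cells at day 3, and no longer at day 14. They are close relatives that mark limb and facial mesenchyme, and mice that lack both have shortened limbs and facial clefts. Prrx1 lies on chromosome 1 (163245119 to 163313650) and Prrx2 on chromosome 2 (30845367 to 30881247). Prrx1 had 169, 267 and 275 CPM at days 3, 7 and 14 in Ezh2-deficient libraries, against 115, 226 and 309 CPM in wildtype. Prrx2 had 13.9, 43.8 and 32.6 CPM in Ezh2-deficient libraries, against 9.56, 38.0 and 32.9 CPM in wildtype. The ranges of the genotypes overlapped for both genes, with the day 3 libraries lowest.

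The ratio of Ezh2-deficient to wildtype was 1.48 for Prrx1 at day 3 (1.42 to 1.54), 1.18 at day 7 (1.15 to 1.22) and 0.890 at day 14 (0.862 to 0.918). For Prrx2 it was 1.45 (1.26 to 1.68), 1.15 (1.07 to 1.24) and 0.991 (0.901 to 1.09). The direction for Prrx1 thus turned between days 7 and 14, and the log2 difference over the days was 0.21 ± 0.37 for Prrx1 and 0.24 ± 0.28 for Prrx2 (SD, 3 days). Between day 3 and day 7, Prrx2 stood 3.15 times higher at the later day in Ezh2-deficient libraries (2.86 to 3.49) and 3.98 times in wildtype (3.52 to 4.51). Prrx1 stood 1.58 times higher in Ezh2-deficient libraries (1.53 to 1.63) and 1.97 times in wildtype (1.9 to 2.05). From day 7 to day 14 the paralogs parted in wildtype, where Prrx1 was 1.37 times its day 7 level (1.33 to 1.41) and Prrx2 0.864 times (0.793 to 0.942). In Ezh2-deficient libraries these values were 1.03 (0.998 to 1.06) and 0.743 (0.685 to 0.806).

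Shox2 differed little between genotypes and was lower at the later days. It is needed in the mouse for the upper bones of the limbs and acts in the growth plate ahead of Runx2 and the maturing chondrocyte. It lies on chromosome 3 from 66973266 to 66981771. Shox2 had 58.5, 41.7 and 39.9 CPM at days 3, 7 and 14 in Ezh2-deficient libraries, against 70.2, 45.6 and 36.9 CPM in wildtype, and the groups overlapped. The ratio was 0.833 at day 3 (0.786 to 0.884), 0.916 at day 7 (0.854 to 0.981) and 1.08 at day 14 (0.991 to 1.18), a mean log2 difference of -0.09 ± 0.19 (SD, 3 days). Level at day 14 was 0.682 times that at day 3 in Ezh2-deficient libraries (0.633 to 0.733) and 0.525 times in wildtype (0.487 to 0.566). In GENCODE, 153 exonic bases of Shox2 are shared with exons of Rsrc1 on the opposite strand. By the coordinates of the deposited table Rsrc1 lies 3.9 kb from Shox2, so the entries share no bases there. Strandedness of the libraries is not stated in the labels, so whether reads in the GENCODE overlap came from Rsrc1 cannot be told. Rsrc1 had 57.3, 48.6 and 60.9 CPM in Ezh2-deficient libraries, against 61.7, 51.6 and 59.6 CPM in wildtype, so that it was lower at day 7 than at day 3 in both genotypes, as Shox2 was, but not at day 14 in the Ezh2-deficient library.

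**Figure D3:**
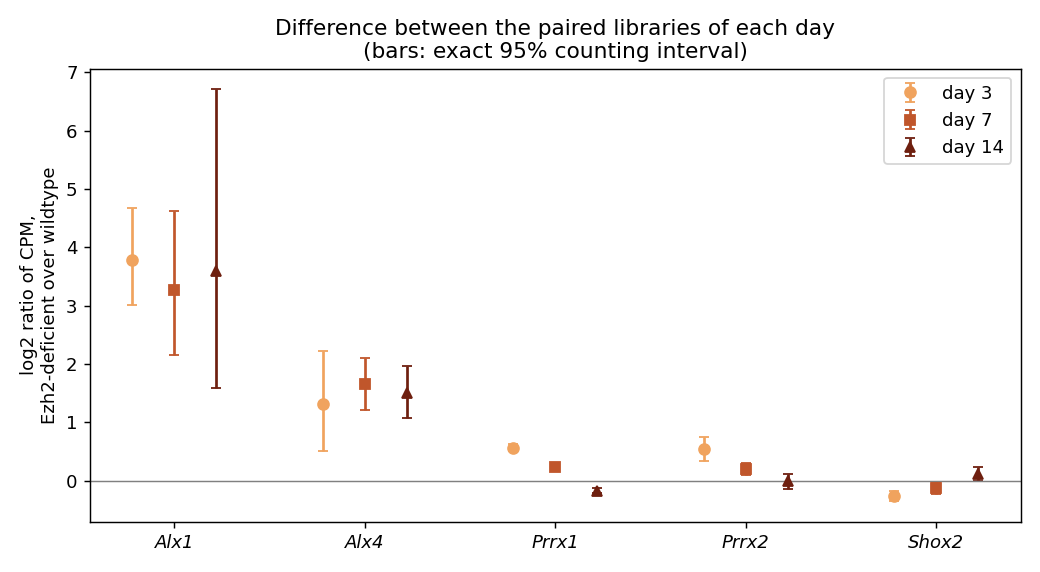
log2 ratio of CPM, Ezh2-deficient over wildtype (vertical axis), for each gene at days 3, 7 and 14, with bars for the exact 95% counting interval. Alx1 and Alx4 lie above 0 on each day with intervals clear of 0, while Prrx1 moves from 0.56 at day 3 to -0.17 at day 14.

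All 5 genes passed the filter on low counts, which left 16280 genes. With day as a factor and the 3 days standing in for replicates, edgeR's quasi-likelihood test (adjusted p under 0.05) called 0 of the 5 between genotypes, against 0% of all genes called higher and 0.0123% lower. Unadjusted edgeR p-values below 0.05 were found for 2 of 5, both higher, as for 6.82% of all genes on the higher side. DESeq2 called 2 of 5 higher, against 2.29% of all genes, and limma-voom 1, against 0.190%. At day 3, 2 of the 5 (the Alx genes) were at least 2-fold higher with at least 1 CPM, as were 1.46% of all genes. At day 7 the same 2 were, against 2.08% of all genes, and at day 14 only Alx4, against 2.14%, since Alx1 was below 1 CPM. All 3 Ezh2-deficient libraries lay above all 3 wildtype libraries for Alx1 alone, and for 2.16% of all genes. Alx1 and Alx4 were higher on all 3 days, as were 18.0% of all genes. By fitted difference Alx1 ranked at 3 from the top of 16280 and Alx4 at 153. The genes were chosen on these values, so nothing is read from the counts.

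Over time, with the 2 genotypes standing in for replicates, edgeR called 3 of the 5 higher (Alx4, Prrx1, Prrx2) and 2 lower (Alx1, Shox2) at day 14 against day 3. Of all genes 23.2% were called higher and 22.4% lower. The same 3 and 2 were called at day 7 against day 3, with 19.5% and 16.6% of all genes. At day 14 against day 7, edgeR, DESeq2 and limma-voom each called 0 of the 5. Of all genes, edgeR called 3.38% higher and 2.29% lower, DESeq2 6.53% and 5.41%, and limma-voom 3.22% and 2.56%. An unadjusted edgeR p below 0.05 on the lower side was found for 1 of the 5 and for 11.6% of all genes. These comparisons share libraries, and the choice of the genes had looked at them.

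The genes most alike in course were found by the root mean square difference between log2 CPM profiles, each centred over the 6 libraries, among 12290 genes with a mean of at least 1 CPM. Features that these genes share with a member are thus built into their choice. Shox2 had the closest, at 0.037 for Cdk2ap1, 0.038 for Setd8 and 0.041 for Thumpd3. Setd8, an older symbol of a histone H4 methyltransferase gene, had 90.7, 67.0 and 65.3 CPM in Ezh2-deficient libraries, against 112, 70.9 and 61.6 CPM in wildtype. Prrx1 was followed by Alpk1 (0.073), Efna5, an ephrin ligand (0.081), and the T-box gene Tbx3 (0.091). Efna5 had 25.5, 38.8 and 38.9 CPM in Ezh2-deficient libraries, against 15.3, 29.3 and 46.3 CPM in wildtype, with the same crossing at day 14 as Prrx1. Prrx2 was followed by Plxdc2, which encodes a membrane protein with a plexin domain (0.087), Bid (0.118) and Traf3ip3 (0.119).

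The nearest genes of Alx4 and Alx1 lay farther off than those of the other members, and the Alx1 profile rests on 2 to 14 fragments in wildtype. The nearest to Alx4 were Nrgn (0.163), which encodes the calmodulin-binding protein neurogranin, Bcl11b (0.266), a zinc finger factor, and Naalad2 (0.271). Nrgn had 1.91, 7.73 and 7.37 CPM in Ezh2-deficient libraries, against 0.728, 1.9 and 3.19 CPM in wildtype, so that each day's Ezh2-deficient library was the higher. The nearest to Alx1 were Plag1 (1.142), a zinc finger factor of growth, Pappa (1.174), a protease of insulin-like growth factor binding proteins, and Dach2 (1.195), a dachshund family gene. Plag1 had 24.6, 20.5 and 7.99 CPM in Ezh2-deficient libraries, against 10.7, 7.49 and 4.03 CPM in wildtype. Its genotype difference was smaller than that of Alx1, and no gene with a full symbol came closer to Alx1 than 1.142 on the log2 scale.

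Most other paired-type homeobox genes were near or below detection. Of 30 such genes in the table, 6 passed the filter, 2 reached 1 CPM in any library and 4 had no count at all. The floor of 3 fragments lay between 0.0763 and 0.114 CPM. Between genotypes 0 of the 6 passed in edgeR, DESeq2 or limma-voom, and 0 had an unadjusted p under 0.05. The median log2 difference of the 6 was -0.01, against 0.00 over all genes.

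Pitx1 was the abundant one, a gene that specifies hindlimb identity. It had 80.1, 56.0 and 21.2 CPM at days 3, 7 and 14 in Ezh2-deficient libraries, against 71.9, 56.1 and 28.9 CPM in wildtype. The genotypes overlapped, and the fitted difference of -0.09 ± 0.13 did not pass (log2, SE; edgeR adjusted p = 0.794). Pitx1 fell with time, by 1.61 on the log2 scale at day 14 against day 3 (edgeR adjusted p = 0.00109, lower in both genotypes). Gsc, a homeobox gene of facial and limb mesenchyme, had 1.88, 2.92 and 3.76 CPM in Ezh2-deficient libraries, against 4.25, 4 and 1.37 CPM in wildtype. It was lower in the Ezh2-deficient library at days 3 and 7 and higher at day 14 (-0.11 ± 0.51, edgeR adjusted p = 0.945).

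Among regulators of limb and craniofacial mesenchyme outside the paired-type class, more had a fitted difference above 0 than below, and none passed in edgeR or limma-voom. These genes were listed with earlier results of these data known, so nothing is read from that direction. Of 45 tested, 32 had a fitted difference above 0, with a median of 0.19 against 0.00 over all genes. On all 3 days 20 were higher and 7 lower, and 18.0% of all genes were higher on all 3 days. The share of all genes lower on all 3 days was not computed. In edgeR and limma-voom 0 passed, while DESeq2 called 8 higher and 1 lower, against 372 (2.29%) and 235 of all 16280 genes. Unadjusted p-values of edgeR below 0.05 numbered 12 among higher and 3 among lower genes, against 1111 (6.82%) and 1031 of all genes. Among those with a mean of at least 1 CPM the highest differences included those of Eya1 (1.02 ± 0.13, adjusted p = 0.101), a transcriptional cofactor of ear and kidney development, Lmx1b (0.91 ± 0.28, 0.285), which sets dorsal limb identity, and Tbx2 (0.76 ± 0.17, 0.196), a T-box repressor. Eya1 had 24.6, 33.5 and 12.8 CPM in Ezh2-deficient libraries, against 12.2, 13.6 and 7.75 CPM in wildtype, higher on each day.

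The lowest differences among those with a mean of at least 1 CPM were Barx1 (-0.66 ± 0.21, adjusted p = 0.308), a homeobox gene of jaw and joint, Six2 (-0.58 ± 0.32, 0.495), Msx2 (-0.56 ± 0.33, 0.511) and the hedgehog effector Gli1 (-0.50 ± 0.07, 0.110), all by edgeR. Gli1 had 17.1, 52 and 54.4 CPM in Ezh2-deficient libraries, against 25.7, 69.4 and 77.2 CPM in wildtype, lower on each day. Over time edgeR called 17 of the 45 higher and 8 lower at day 14 against day 3, against 23.2% and 22.4% of all genes. The median was 0.27, against -0.02 over all genes. Tbx2, for instance, rose by 3.8 on the log2 scale (edgeR adjusted p = 0.000263).

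Genes tied to these factors in limb or cartilage showed no single direction. Of 10 tested, 0 passed between genotypes in edgeR, 3 higher and 3 lower genes had an unadjusted p below 0.05, and calls numbered 2 higher and 1 lower in DESeq2 and 1 higher in limma-voom. Of all 16280 genes, 1111 higher and 1031 lower had such an unadjusted p in edgeR. DESeq2 called 372 higher and 235 lower of them, and limma-voom 31 and 9. The median was 0.00, as over all genes. Tnc, which encodes tenascin-C and responds to Prrx1 in mouse cells, had 165, 514 and 1630 CPM in Ezh2-deficient libraries, against 88.7, 274 and 1220 CPM in wildtype (0.74 ± 0.13, adjusted p = 0.127). Bmp4, a growth factor gene downstream of Shox2 in the mouse limb, had 4.92, 17.9 and 43.6 CPM in Ezh2-deficient libraries, against 2.21, 9.45 and 18.5 CPM in wildtype (1.10 ± 0.11, adjusted p = 0.0674). For both genes the Ezh2-deficient library of a day exceeded the wildtype one throughout. Runx2, the factor of hypertrophy and bone that lies downstream of Shox2 in the mouse, had 77.4, 98.4 and 258 CPM in Ezh2-deficient libraries, against 58.3, 87.8 and 229 CPM in wildtype (0.25 ± 0.08, adjusted p = 0.309).

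Runx3 (0.10), the growth factor gene Fgf10 (0.12), the hedgehog ligand gene Ihh (-0.20) and Fgfr3 (-0.10), the receptor that restrains growth plate chondrocytes, had fitted differences with adjusted p of 0.832, 0.890, 0.767 and 0.746. Pthlh, whose product delays hypertrophy, was -0.89 ± 0.31 (0.334), the hedgehog receptor gene Ptch1 -0.31 ± 0.09 (0.280) and Acan, which encodes aggrecan, -0.68 ± 0.19 (0.257). Shh was listed at 0 counts in all 6 libraries. At day 14 against day 3, 6 of the 10 were called higher and 3 lower by edgeR, against 23.2% and 22.4% of all genes.

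**Figure D4:**
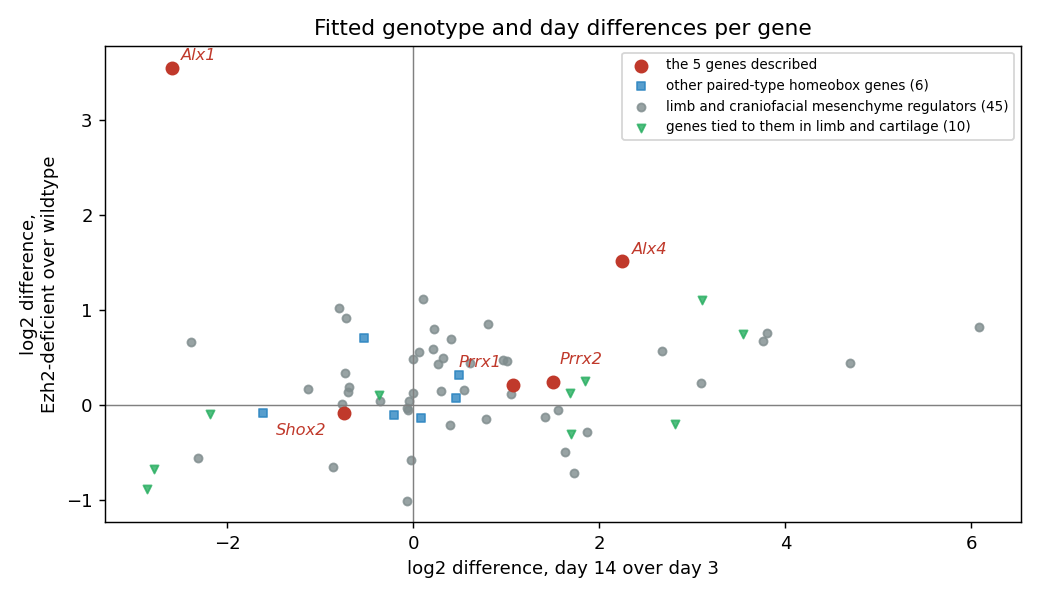
Fitted log2 difference of Ezh2-deficient over wildtype (vertical axis) against that of day 14 over day 3 (horizontal axis), 1 point per tested gene. Alx1 (-2.59, 3.55) and Alx4 (2.25, 1.51) lie above every gene of the other 3 lists (paired-type, mesenchyme and tied genes) on the vertical axis. Alx1 and Alx4 were chosen on their counts in these libraries, so nothing is read from that position. Some marker genes, which are outside these lists, had a fitted difference above that of Alx4 and below that of Alx1, such as Ibsp (2.13), Cnn1 (1.77) and Fabp4 (1.53).

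Summed markers of several cell types differed between the paired libraries, but edgeR called 0 of 46 marker genes between genotypes. Unadjusted edgeR p-values below 0.05 numbered 18 among higher and 10 among lower genes, DESeq2 called 14 higher and 3 lower, and limma-voom 4 higher and 0 lower. Over all 16280 genes these numbers were 1111 and 1031, 372 and 235, and 31 and 9. Higher on all 3 days were 18.0% of all genes. The share of all genes lower on all 3 days was not computed, so nothing is read from the numbers of markers lower on all 3 days. Summed chondrocyte markers were 122000, 49800 and 20300 CPM at days 3, 7 and 14 in Ezh2-deficient libraries, against 125000, 71200 and 33700 CPM in wildtype, and 7 of the 10 were lower on all 3 days. At day 7 the cells thus carried Col2a1 (33600 against 47600 CPM), Acan and Sox9 (208 against 306 CPM). Summed osteoblast markers were 1330, 8250 and 95700 CPM, against 802, 6760 and 44300 CPM in wildtype, with 7 of 7 higher on all 3 days. At day 14 the osteoblast sum was above the chondrocyte sum in both genotypes. Each sum is weighted to its most abundant genes. At day 14 Col1a1 made 63000 against 34600 CPM of the osteoblast sums, and Ibsp 29900 against 8250 CPM. Fibroblast and perichondrium markers were 1890, 8470 and 9080 CPM, against 1640, 6710 and 10900 CPM in wildtype (3 of 9 higher and 2 of 9 lower on all 3 days). Col3a1 alone made 5630 against 7160 CPM of these sums at day 14.

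Tendon markers summed to 18.3, 78.6 and 73.0 CPM, against 16.7, 42.8 and 54.1 CPM in wildtype (3 of 4 higher and 1 lower on all 3 days). Smooth muscle markers summed to 186, 500 and 266 CPM, against 70.4, 339 and 232 CPM in wildtype (3 of 5 higher on all 3 days). Adipocyte markers summed to 71.8, 333 and 121 CPM, against 12.5, 168 and 64.7 CPM in wildtype (4 of 4). Macrophage markers were 34.9, 307 and 566 CPM, against 40.5, 374 and 504 CPM in wildtype (1 of 3 lower on all 3 days). Endothelial markers stayed at or below 1.58 CPM and skeletal muscle markers at or below 5.38 CPM in sum, and Myod1 was at 0 in 3 libraries. In bulk RNA, more cells of a type and more RNA per cell cannot be told apart, and the part of these cells in the levels of the 5 genes was not tested.

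Depth was 51985214 to 79323302 counts per library, and the Ezh2-deficient library was the deeper at each day. The ribosomal precursor Rn45s took 2.98%, 2.51% and 2.28% of counts at days 3, 7 and 14 in Ezh2-deficient libraries, against 1.82%, 1.66% and 2.06% in wildtype, and the part of either difference in the levels of the 5 genes was not tested. Ezh2 itself had 14.7, 23.0 and 17.6 CPM in Ezh2-deficient libraries, against 24.7, 40.2 and 27.9 CPM in wildtype (-0.74 ± 0.08, edgeR adjusted p = 0.0729). Reads outside the deleted part do not check the label. Xist, the transcript of the inactive X chromosome, was 842, 677 and 513 CPM, against 1060, 1130 and 1220 CPM in wildtype. The sum of 4 Y-linked genes was 122, 131 and 171 CPM, against 90.8, 62.5 and 60.6 CPM in wildtype. Xist was lower and the Y-linked sum higher in each Ezh2-deficient library, and the part of sex in the levels of the 5 genes was not tested.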

How the data were processed

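RNA of 6 libraries was sequenced, 1 for each of 2 genotypes at each of 3 days. The deposited table held whole-number read counts per gene, not normalized, and RPKM that the authors made from the same counts, per the file headers, by a coding length and a library total (the counts in the table were 80.2% to 82.8% of it). CASAVA 1.9, TopHat 12.0.6 and HTSeq are listed in the submitters' processing notes, without a role. The annotation used for counting is not stated there. Libraries were matched to columns by title. Levels are CPM with TMM factors (0.935 to 1.09).

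Tests ran in R 4.3.3 with edgeR 4.0.16 on all genes kept by filterByExpr (minimum count 10, day as group), with day and genotype as terms, 2 residual degrees of freedom and Benjamini-Hochberg adjustment over 16280 genes. Days or genotypes stand in for replicates, so p-values measure the spread between these libraries. DESeq2 1.42.0 and limma 3.58.1 (voom) were alternatives, with RLE factors, library totals, no filter and each day's pair left out. The fit was tested on simulated data. SE is the log2 difference over the square root of F. Within a day, ratios carry exact conditional binomial intervals (95%) on fragments.

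Members and lists were chosen with earlier results of these data known. Named were the members, their 3 nearest genes by profile, list genes of at least 1 CPM in any library (paired-type and tied genes) or with the 4 largest differences each way among those with a mean of at least 1 CPM (mesenchyme list), and for markers their sums with Col2a1, Acan and Sox9. Single genes named beyond that rule (Rsrc1, Myod1, Xist, Rn45s, neighbours) were chosen after their values were seen or by position. Some genes that the rule names are not reported here.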

Additional observations from a re-analysis of the deposited data

Results flagged for a closer look

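The genotype difference of Prrx1 changed direction between days. The Ezh2-deficient library was higher at day 3 (169 against 115 CPM in wildtype) and lower at day 14 (275 against 309 CPM), with counting intervals of the ratio on opposite sides of 1. The log2 difference at day 14 minus that at day 3 was -0.73. The difference was not tested, since each genotype had 1 library per day.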

How the results depend on the processing

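For genes higher and lower between genotypes (0 and 2 in edgeR), DESeq2 gave 372 and 235, limma-voom 31 and 9, RLE factors 6 higher, no filter 6 higher and library totals 0 lower. Leaving out one day's pair gave from 0 to 383 higher and 0 to 480 lower, the highest without day 3. Genes lower at day 7 against day 3 were 1250 with library totals (2709 in edgeR with TMM factors), and DESeq2 gave 1063 higher and 881 lower at day 14 against day 7 (550 and 372). Under these 8 alternatives none of the 5 genes changed direction between genotypes, but leaving out a day's pair moved Prrx1 (0.21) to between 0.04 and 0.41, Prrx2 (0.24) to between 0.1 and 0.37 and Shox2 (-0.09) to between -0.19 and -0.01, the smallest differences without day 3. Alx1 ranged from 3.36 to 3.71 and Alx4 from 1.42 to 1.58. The day 14 against day 3 difference from each genotype alone, on the log2 scale with the prior count of 2, ranged from -2.64 to -2.1 for Alx1 and from 2.08 to 2.3 for Alx4. The prior count pulls the wildtype value of Alx1 towards 0. Without it the log2 ratio for Alx1 was -2.68 in Ezh2-deficient and -2.48 in wildtype libraries. With a day's pair left out, Gsc ranged from -0.8 to 0.44, Pitx1 from -0.22 to 0.08, Runx3 from -0.11 to 0.29, Ihh from -0.53 to 0.07 and Fgf10 from -0.28 to 0.45, and Fgf10 was -0.02 in limma-voom. Eya1, Tbx2, Gli1, Tnc, Bmp4, Acan and Ezh2, which did not pass in edgeR, passed in DESeq2 (adjusted p under 0.05). Bmp4 (0.0466) and Ezh2 (0.0485) also passed in limma-voom. In edgeR without the day 3 pair, with 1 residual degree of freedom, Eya1, Barx1, Gli1, Bmp4, Acan, Ezh2 and Sox9 passed. The causes were not tested. Depth limits Alx1 in wildtype, where 2 to 14 fragments were counted.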

Other observations

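The genes that flank each of the 5 in the table were looked up by position alone. On either side of Alx1, Rassf9 and, 34.4 kb away, Lrriq1 were at or below 0.255 CPM in every library, too low to show whether they differed between genotypes as Alx1 did. Ext2, which encodes an enzyme of heparan sulphate synthesis and lies 14.3 kb from Alx4 by the coordinates of the deposited table (in GENCODE the genes overlap on opposite strands, with 0 shared exonic bases), had 158, 179 and 148 CPM at days 3, 7 and 14 in Ezh2-deficient libraries, against 142, 178 and 166 CPM in wildtype, a fitted log2 difference of 0.00 (edgeR adjusted p = 1). Ptges, which encodes a prostaglandin E synthase and lies 8.22 kb from Prrx2, had 8.50, 35.1 and 33.0 CPM in Ezh2-deficient libraries, against 7.04, 28.3 and 30 CPM in wildtype (0.24, edgeR adjusted p = 0.342). Like Prrx2 it was lowest at day 3 in both genotypes. Ptx3, which encodes a secreted protein of the pentraxin family and lies 747 kb from Shox2, had 72.2, 247 and 186 CPM in Ezh2-deficient libraries, against 56.1, 135 and 164 CPM in wildtype. The Ezh2-deficient value was the higher of each pair, and the fitted difference of 0.47 did not pass (edgeR adjusted p = 0.280). Asb6 beside Prrx2 (0.17, adjusted p = 0.478) and Gorab beside Prrx1 (0.08, adjusted p = 0.711) did not pass either. Gm10804 beside Alx4 was at or below 0.304 CPM, and 4921528O07Rik beside Prrx1 had 0 counts in every library.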
